A study of Mus musculus with 48 samples.

Results

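Ligands of the tumour necrosis factor (TNF) superfamily were followed through T cell receptor stimulation, with PD-1 engaged or not. PD-1 is an inhibitory receptor that activated T cells carry. The members were chosen by gene symbol: Tnf, Fasl, Tnfsf11, Tnfsf14, Tnfsf8 and Cd40lg. Of the 6, 5 were present in the table of a T cell hybridoma, each as 1 tag cluster, out of 10098 genes; Tnfsf8 is not among them, and no cluster of that table stays under 3.01 RPM in every library. All 6 were present in the table of primary CD4+ T cells, in 7 tag clusters, out of 10219 genes. A tag cluster groups neighbouring transcription starts of the same strand, and clusters of 1 gene were summed.

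Start sites were counted by CAGE, cap analysis of gene expression, which reads the 5′ ends of capped RNA. The hybridoma was DO11.10 (strain BALB/c x AKR/J), a fused T cell line specific for a peptide of ovalbumin, and it received 0, 1, 10, 100, 1000 or 10000 nM of that peptide, pOVA. The CD4+ T cells came from BALB/cCrSlc mice and received 0, 10, 100, 1000 or 10000 ng/ml of 2C11, an antibody to CD3. Every dose was given with PD-1 engagement and without it, so dose 0 also has an engaged and an unengaged group. There were 26 hybridoma libraries in 12 groups and 22 CD4 libraries in 10 groups, with 2 libraries in a group and 3 at the top dose. Both systems are mouse cells. The labels give neither the way PD-1 was engaged, nor the time of stimulation, nor whether replicates were separate cultures or animals, so the p-values measure the spread between these libraries only. In bulk RNA, fewer cells with a transcript and less transcript per cell cannot be told apart.

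TNF superfamily ligands are mostly trimeric membrane proteins that activated lymphocytes place on their surface or shed, and that act on receptors of the TNF receptor superfamily on neighbouring cells. Some of these receptors carry a death domain and can start apoptosis, while others recruit TRAF adaptors and turn on NF-κB. T cells make several of the ligands after antigen receptor signalling through NFAT, AP-1 and NF-κB, and PD-1 dampens signalling close to that receptor. TNF and Fas ligand are effector molecules of inflammation and of killing. CD40 ligand, CD30 ligand (the product of Tnfsf8), LIGHT (Tnfsf14) and RANK ligand (Tnfsf11) act in help to B cells, in costimulation and in the maturation of antigen-presenting cells or osteoclasts.

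Promoter sequence was looked up for the members because the counted tags mark their start sites. The RefSeq promoter table (GRCm38.p6, a later build than the mm9 of the deposited coordinates) held 5 of the 6 members, all but Cd40lg. Of these, 4 are printed 5′ to 3′ on the gene's strand as the 250 bases before the RefSeq start. Tnf is shown for its TATA-like match, Fasl for a gene at or near 0 tags before stimulation, Tnfsf14 as the member with a TGANTCA match, and Tnfsf8 as the member with a second tag cluster. Capitals mark matches to TATAA, to GGAAA (the core letters of NFAT sites) and to TGANTCA (the letters of AP-1 sites), on either strand; no marked match overlaps another in the printed windows. Tnf lies at chr17:35202008-35202257, Fasl at chr1:161788496-161788745, Tnfsf14 at chr17:57194182-57194431 and Tnfsf8 at chr4:63861285-63861534, all on the minus strand of GRCm38.p6.
Tnf: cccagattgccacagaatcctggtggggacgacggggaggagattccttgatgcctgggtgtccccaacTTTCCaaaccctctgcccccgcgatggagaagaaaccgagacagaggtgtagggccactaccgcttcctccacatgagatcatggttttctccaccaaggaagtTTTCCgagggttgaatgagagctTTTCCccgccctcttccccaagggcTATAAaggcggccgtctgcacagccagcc
Fasl: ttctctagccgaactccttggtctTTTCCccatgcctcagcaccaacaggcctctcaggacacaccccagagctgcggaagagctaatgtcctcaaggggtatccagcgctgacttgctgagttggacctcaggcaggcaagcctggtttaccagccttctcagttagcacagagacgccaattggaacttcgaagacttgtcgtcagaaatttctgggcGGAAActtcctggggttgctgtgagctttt
Tnfsf14: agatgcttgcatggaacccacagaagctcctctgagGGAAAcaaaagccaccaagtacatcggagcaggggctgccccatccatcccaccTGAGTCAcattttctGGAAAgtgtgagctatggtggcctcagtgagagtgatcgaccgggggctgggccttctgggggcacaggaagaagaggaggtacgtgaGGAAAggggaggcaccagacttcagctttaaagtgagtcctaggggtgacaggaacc
Tnfsf8: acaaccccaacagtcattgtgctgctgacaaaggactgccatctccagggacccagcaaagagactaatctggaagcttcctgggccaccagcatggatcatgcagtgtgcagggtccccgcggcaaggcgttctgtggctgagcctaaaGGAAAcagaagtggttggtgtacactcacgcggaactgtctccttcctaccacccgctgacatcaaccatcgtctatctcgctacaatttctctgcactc

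The Tnf window held 1 TATAA match, from 29 to 25 bases before the start, and the Tnfsf11 window 2 overlapping ones, 1 on each strand, from 31 to 26 bases before it. Fasl, Tnfsf14 and Tnfsf8 held none of these letters. GGAAA occurred 3 times in Tnf and in Tnfsf14, 2 times in Fasl and once in Tnfsf8 and in Tnfsf11. TGAGTCA stood once in Tnfsf14, from 160 to 154 bases before the start. Among 32851 promoter windows of the same length in the table, 22.8% held TATAA, 55.6% held GGAAA and 6.75% held TGANTCA. These matches describe letters in the windows and are not measurements of factor binding. Distances count from the RefSeq start, which was not placed on the mm9 coordinates of the counted clusters. Which Tnfsf8 cluster its window precedes was not determined.

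In the deposited mm9 coordinates, the base of counting of which the files do not state, the Tnf cluster was the same in both systems, chr17:35338950-35338953 on the minus strand. Fasl was counted at chr1:163718495-163718584 (minus) in the hybridoma and at chr1:163718497-163718599 in CD4+ T cells. Tnfsf11 lay at chr14:78707848-78707911 (minus) in the hybridoma, and Tnfsf14 at chr17:57333572-57333608 (minus) in the hybridoma and at chr17:57333601-57333609 in CD4+ T cells. Cd40lg lay on the plus strand at chrX:54465239-54465311 in the hybridoma. The clusters of Tnfsf8 in CD4+ T cells were chr4:63522070-63522075 and, upstream on the minus strand, chr4:63522319-63522392.

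Values are RPM, tags scaled by the authors to the total of each library. Library totals, recovered from the size of 1 tag, lay between 7.79 and 19.7 M (mega) tags for the hybridoma, and between 4.42 and 22.8 M tags for CD4+ T cells. Differences are in log2(RPM + 1), which understates changes of low values, and a gene was called at an adjusted p under 0.05 in limma over all genes tested in a table. T cell markers summed to between 624 and 1000 RPM in the hybridoma, where Cd4 is absent from the table, and to between 2532 and 3794 RPM in CD4+ T cells. The hybridoma libraries of dose 0 with replicate number 2 stood apart: 6 B cell markers summed to 237 RPM (engaged) and 268 RPM (unengaged) there, against 16.7 to 59.7 RPM in the other 24 libraries. Among CD4+ T cell libraries 4 of 6 B cell markers were called higher with engagement, averaged over the stimulated doses. Of 10217 genes, 458 were called higher for this average and 41.2% lower. The 6 markers summed to between 87.1 and 165 RPM in stimulated engaged libraries against 66.9 to 122 RPM in stimulated unengaged ones. All 5 markers of antigen-presenting cells were present, and in the hybridoma they summed to 741 RPM (engaged) and 952 RPM (unengaged) in the dose 0 libraries of number 2, against 63.1 to 227 RPM in the others. In CD4+ T cells 4 of the 5 were called higher with engagement for the same average, beside the same 458 of 10217 genes. Their sums were 416 to 1083 RPM in stimulated engaged libraries and 387 to 808 RPM in stimulated unengaged ones. Fits with the B cell markers as a covariate, and without both dose 0 libraries of number 2, were run as alternatives. Beyond these, the part of these other cells in the results was not tested.

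Every member present was higher after stimulation without PD-1 engagement, in both systems. At 10000 nM pOVA against 0, all 5 hybridoma members rose, beside 8.09% of all genes tested. At 10000 ng/ml 2C11 against 0, all 6 members rose in CD4+ T cells, beside 27.5% of all genes. The member median was 2.57 in the hybridoma and 2.92 in CD4+ T cells, against -0.18 and -0.15 over all genes.

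Tnf encodes the inflammatory cytokine that gives the family its name. In the hybridoma at 10000 nM without engagement it reached 178, 170 and 243 RPM, against 19.8 and 32.2 RPM at dose 0. The groups lie far apart, and the fitted difference was 2.90 (SE 0.19, adjusted p = 2.18e-09 in limma). The CD4+ T cells at 10000 ng/ml without engagement held 304, 311 and 327 RPM of it, against 47.3 and 45.5 RPM at dose 0, a difference of 2.73 (SE 0.10, adjusted p = 5.11e-14 in limma). The increase was already called at 100 nM and at 100 ng/ml, and the value at the next lower dose, 25.6 and 31.7 RPM at 10 nM and 48.7 and 46.9 RPM at 10 ng/ml, did not pass the test against dose 0.

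**Figure D1:**
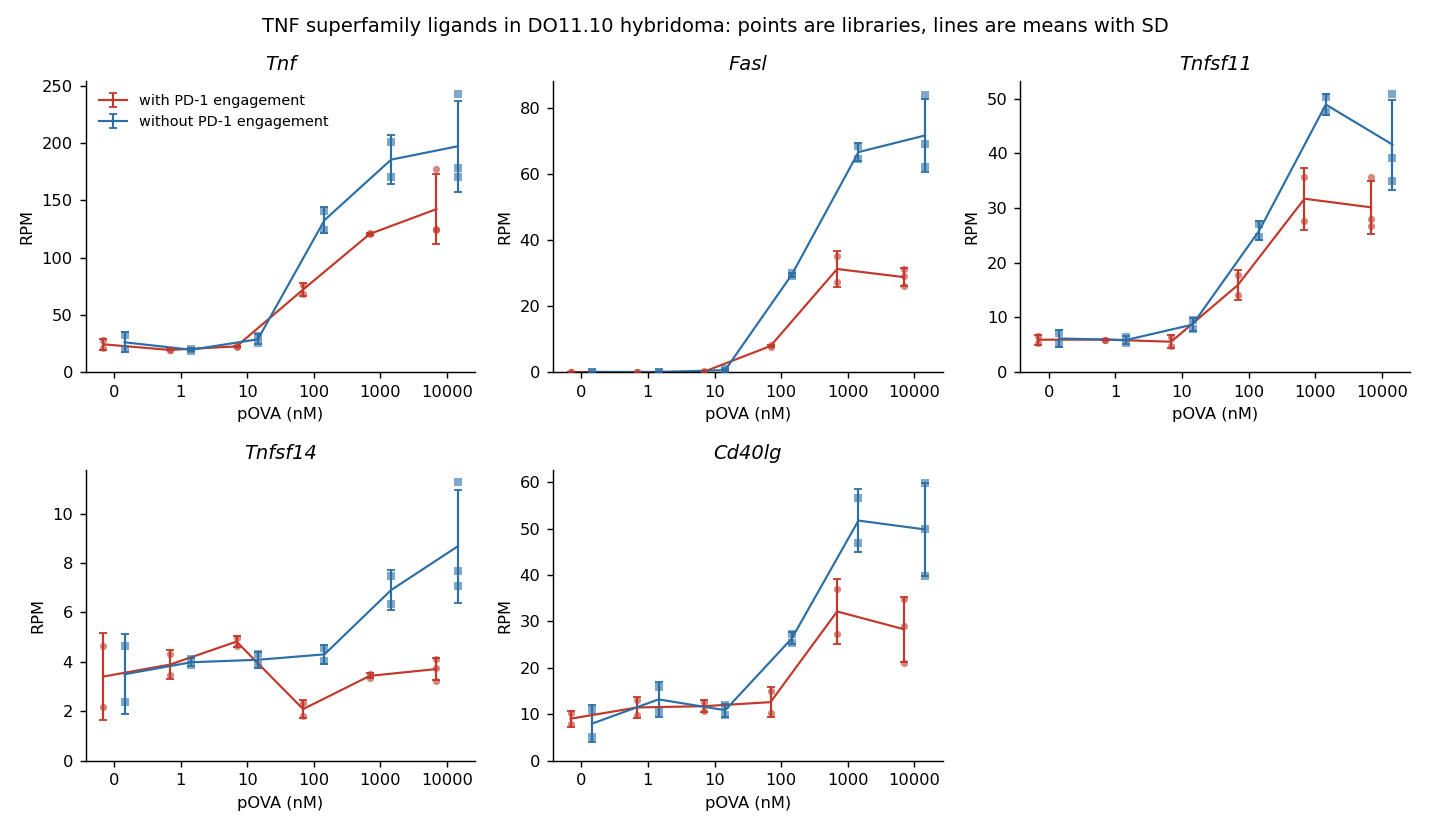
RPM (vertical axis) of the 5 members in the DO11.10 hybridoma against pOVA dose in nM (horizontal axis, evenly spaced categories), with and without PD-1 engagement; points are libraries, lines join group means and bars are SD. Fasl lies at or near 0 up to 10 nM in both arms, and at 100 nM the engaged libraries of every member lie below the unengaged ones.

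Fasl encodes the death ligand that binds Fas. It went furthest in the hybridoma, in which it was all but missing at rest. Across the unengaged dose 0 libraries 1 Fasl tag was counted among 27.7 M tags, and across the engaged ones 0 among 28.4 M tags, which allows up to 0.106 RPM (3 tags; counting error only). At 10000 nM without engagement Fasl stood at 83.9, 62.1 and 69.0 RPM, a ratio of 1988 to that single tag with a counting interval from 357 to 78504 (95%, exact Poisson). With engagement it stood at 31.3, 26.0 and 29.0 RPM at 10000 nM, at least 273-fold higher than at dose 0, taken at the floor of 3 tags over its 2 engaged libraries. The fitted difference without engagement, 6.11 (SE 0.16, adjusted p = 5.49e-15 in limma), depends on the added 1 RPM. Primary CD4+ T cells held Fasl tags before stimulation: it had 26.2, 22.4 and 26.6 RPM at 10000 ng/ml without engagement, against 2.00 and 2.07 RPM at dose 0, with a difference of 3.10 (SE 0.15, adjusted p = 1.26e-12 in limma).

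Tnfsf11 encodes RANK ligand, the cytokine of osteoclast and dendritic cell differentiation. Without engagement it reached 50.8, 39.1 and 34.9 RPM in the hybridoma at 10000 nM, against 5.10 and 7.20 RPM at dose 0, and 17.1, 14.6 and 15.8 RPM in CD4+ T cells at 10000 ng/ml, against 2.00 and 1.84 RPM at dose 0. No groups overlapped in either system, and the differences were 2.57 (SE 0.18) in the hybridoma and 2.52 (SE 0.24) in CD4+ T cells (adjusted p = 5.98e-09 and 2.69e-08 in limma).

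Cd40lg encodes the ligand through which helper T cells activate B cells. Its unengaged libraries of the top dose held 59.9, 39.7 and 49.8 RPM in the hybridoma, against 10.9 and 5.13 RPM at dose 0, and 158, 179 and 162 RPM in CD4+ T cells, against 17.4 and 19.2 RPM at dose 0. Top-dose and resting libraries did not overlap in either system (2.56, SE 0.27, adjusted p = 1.01e-06 in the hybridoma, and 3.11, SE 0.19, adjusted p = 3.25e-11 in CD4+ T cells, limma).

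Tnfsf14 encodes LIGHT, a ligand of the herpesvirus entry mediator and of the lymphotoxin β receptor. In CD4+ T cells it had 33.0, 41.8 and 39.9 RPM at 10000 ng/ml without engagement, against 1.64 and 1.03 RPM at dose 0, the largest fitted increase of the 6 members there (4.07, SE 0.18, adjusted p = 6.33e-13 in limma). In the hybridoma it had 7.67, 11.3 and 7.06 RPM at 10000 nM without engagement, against 4.64 and 2.36 RPM at dose 0, a difference of 1.13 (SE 0.24, adjusted p = 0.00165 in limma). The lower of those resting values is the library rich in B cell markers: without it the difference was 0.75 and no longer called (adjusted p = 0.0608 in limma), and the count of members that rose was 4. This hybridoma call was also lost when only the compared groups were fitted (1.13, adjusted p = 0.0537 in limma). The difference between systems was not tested, since the tables were made apart.

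Tnfsf8, CD30 ligand, was present in the CD4 table alone. It reached 258, 279 and 258 RPM at 10000 ng/ml without engagement, against 39.5 and 45.1 RPM at dose 0, and the groups were far from overlapping (2.62, SE 0.10, adjusted p = 5.11e-14 in limma).

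**Figure D2:**
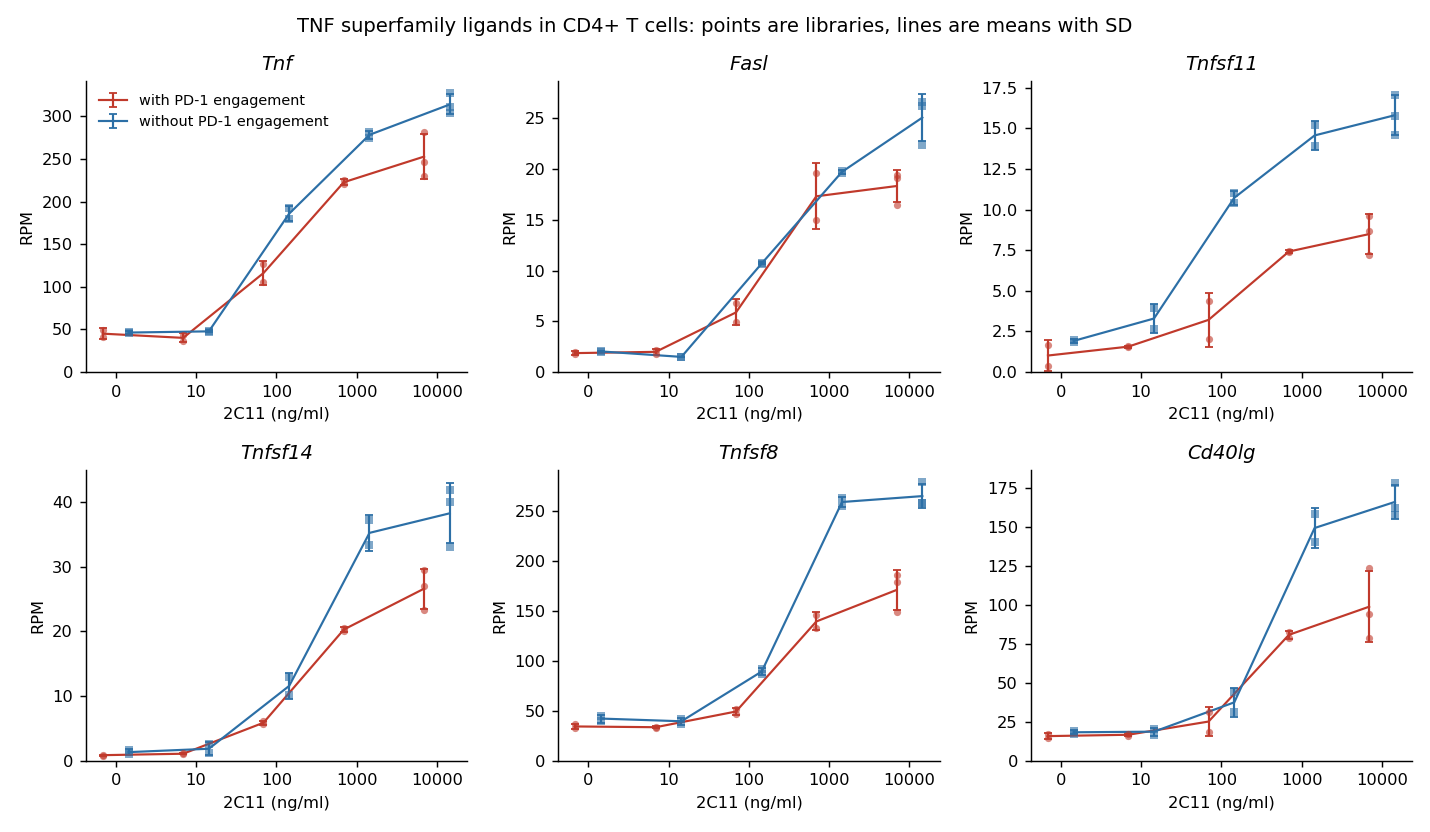
RPM (vertical axis) of the 6 members in CD4+ T cells against 2C11 dose in ng/ml (horizontal axis, evenly spaced categories), with and without PD-1 engagement; points are libraries, lines join group means and bars are SD. No member was called against dose 0 at 10 ng/ml, and at 10000 ng/ml no engaged library of any member reached its unengaged libraries.

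The dose series placed the increase between 10 and 1000 units of dose in both systems. No member was called by limma, edgeR or DESeq2 against dose 0 at 1 or 10 nM, or at 10 ng/ml, in either arm; at an unadjusted p under 0.05 limma gave up to 2 members, both at 10 nM without engagement, where 0.0297% of all genes were called higher. At 100 nM without engagement 4 of 5 members had risen, all but Tnfsf14, beside 2.84% of all genes; at 100 ng/ml all 6 had, beside 19.2% of all genes. Limma called 0 members for the step from 1000 to 10000, beside 0 genes in either arm of the hybridoma and, in CD4+ T cells, 3.47% of genes higher with engagement and 0.626% without. At an unadjusted p under 0.05 this step gave 0 members in the hybridoma and 1 in each arm of CD4+ T cells, and edgeR and DESeq2 each called 0 in the hybridoma and 2 in CD4+ T cells, Fasl and Tnf of the unengaged arm, both higher at 10000 ng/ml. Hybridoma Tnfsf11, for example, had 41.6 ± 8.22 RPM at 10000 nM (SD, n = 3) and 50.3 and 47.5 RPM at 1000 nM.

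The dose at which the group mean passed the midpoint between the dose 0 level and the highest mean, interpolated on log10 dose, describes the order of the members. In unengaged hybridoma cells it was 62.7 nM for Tnf, 118 nM for Tnfsf11, 137 nM for Cd40lg, 148 nM for Fasl and 484 nM for Tnfsf14. In unengaged CD4+ T cells it was 56.2 ng/ml for Tnfsf11, 90.9 ng/ml for Tnf, 207 ng/ml for Fasl, 223 ng/ml for Tnfsf14, 239 ng/ml for Tnfsf8 and 308 ng/ml for Cd40lg. With engagement the midpoints lay at higher doses for every member that had one. For Tnf they were 170 nM and 203 ng/ml, for Tnfsf11 152 nM and 233 ng/ml, for Fasl 214 nM and 234 ng/ml, and for Cd40lg 256 nM and 379 ng/ml. Engaged CD4+ T cells had midpoints of 351 ng/ml for Tnfsf14 and 391 ng/ml for Tnfsf8. These values rest on 10-fold dose steps with 2 libraries a group, carry no error and were not tested.

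Most members were also higher after stimulation with engaged PD-1. Against engaged cells at dose 0, 4 of 5 rose in the hybridoma at 10000 nM (7.05% of all genes rose) and all 6 in CD4+ T cells at 10000 ng/ml (38.4% of all genes). The exception was hybridoma Tnfsf14, with 4.13, 3.76 and 3.24 RPM at 10000 nM against 4.64 and 2.17 RPM at dose 0, groups that overlap (0.15, SE 0.24, adjusted p = 0.646 in limma). The differences of the others were 4.89 for Fasl, 2.50 for Tnf, 2.16 for Tnfsf11 and 1.52 for Cd40lg in the hybridoma. They were 3.88 in CD4+ T cells for Tnfsf14, 2.75 for Fasl, 2.55 for Cd40lg, 2.46 for Tnf, 2.31 for Tnfsf11 and 2.28 for Tnfsf8. At 100 nM with engagement 3 of 5 members had risen, all but Cd40lg and Tnfsf14 (0.733% of all genes), and at 100 ng/ml 5 of 6, all but Cd40lg (8.92% of all genes), whose difference was 0.60 (adjusted p = 0.0597 in limma). The stimulation and the engagement comparisons share libraries, so their values stand side by side here and were not related to each other.

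Ligand levels of stimulated cells were lower with PD-1 engagement. Averaged over the 5 stimulated doses of the hybridoma, 4 of 5 members were lower with engagement and 0 higher, where 0.872% of all genes tested were lower and 0.0594% higher. The member median was -0.49, against a median of all genes near 0 (-0.003). Among the members called Fasl differed most (-0.93, SE 0.08, adjusted p = 1.79e-06), followed by Tnfsf14 (-0.49, SE 0.11, adjusted p = 0.0372), Tnfsf11 (-0.46, SE 0.09, adjusted p = 0.00961) and Tnf (-0.46, SE 0.09, adjusted p = 0.0130), all in limma. Cd40lg, at -0.52 (SE 0.13), was not called (adjusted p = 0.0646 in limma). With each engaged and unengaged library of the same dose and number as a replicate block it was (adjusted p = 0.00126 in limma), so that all 5 members were lower beside 4.52% of all genes. It was also called without both dose 0 libraries of number 2 (adjusted p = 0.0219 in limma), with a pseudocount of 5 (0.0339), with the B cell markers as a covariate (0.0410), with the compared groups alone (0.0216) and by DESeq2 (0.00899).

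Some hybridoma calls depend on the setting. Tnfsf14 kept its call without any 1 of the dose 0 libraries, of unengaged 10000 nM replicates 1 and 3 or of engaged 10000 nM replicate 1, and lost it without any 1 of the other 19 libraries (adjusted p up to 0.109 in limma). It also lost it after quantile normalization (-0.52, adjusted p = 0.131 in limma) and in edgeR (-0.61, adjusted p = 0.0515). Fasl was not called for this average by edgeR (adjusted p = 1.00) or DESeq2 (adjusted p = 0.339) on the recovered tags, where several groups of the low doses hold 0 tags.

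All 6 members were lower with engagement in CD4+ T cells when averaged over the 4 stimulated doses, but so were 41.2% of all genes tested, and the median over all genes was itself -0.14. Members lay below that median: Tnfsf11 at -0.99 (SE 0.13, adjusted p = 1.65e-05), Tnfsf8 at -0.65 (SE 0.05, adjusted p = 9.92e-08), Tnfsf14 at -0.64 (SE 0.10, adjusted p = 6.80e-05), Cd40lg at -0.59 (SE 0.10, adjusted p = 0.000139), Tnf at -0.39 (SE 0.05, adjusted p = 2.69e-05) and Fasl at -0.29 (SE 0.08, adjusted p = 0.00606), in limma. Of 7 markers of NK and cytotoxic cells, which also make Fas ligand, 3 were present (Gzma, Gzmb and Nkg7). The other 4, Cd8a and Prf1 among them, were absent from the table. The sum of the 3 at 10000 ng/ml was 143 to 167 RPM engaged against 255 to 268 RPM unengaged. At dose 0 it was 71.9 to 101 RPM engaged and 89.3 to 119 RPM unengaged, so it also changed with stimulation. Gzmb made up most of it (62.4 to 246 RPM over all libraries, against up to 12.9 RPM for Gzma and 17.0 RPM for Nkg7). The part of such cells in the Fasl result was not tested. Over all genes 458 were higher and 4205 lower; with TMM factors the split was 916 to 2339, and after quantile normalization 1440 to 1301. The members were lower under each of these scalings, in all 6 cases with TMM factors (22.9% of all genes lower) and in 5 of 6 after quantile normalization (12.7% lower). The exception was Fasl, at -0.16 after quantile normalization (adjusted p = 0.133 in limma), -0.12 in edgeR (adjusted p = 0.454) and -0.12 in DESeq2 (adjusted p = 0.564).

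**Figure D3:**
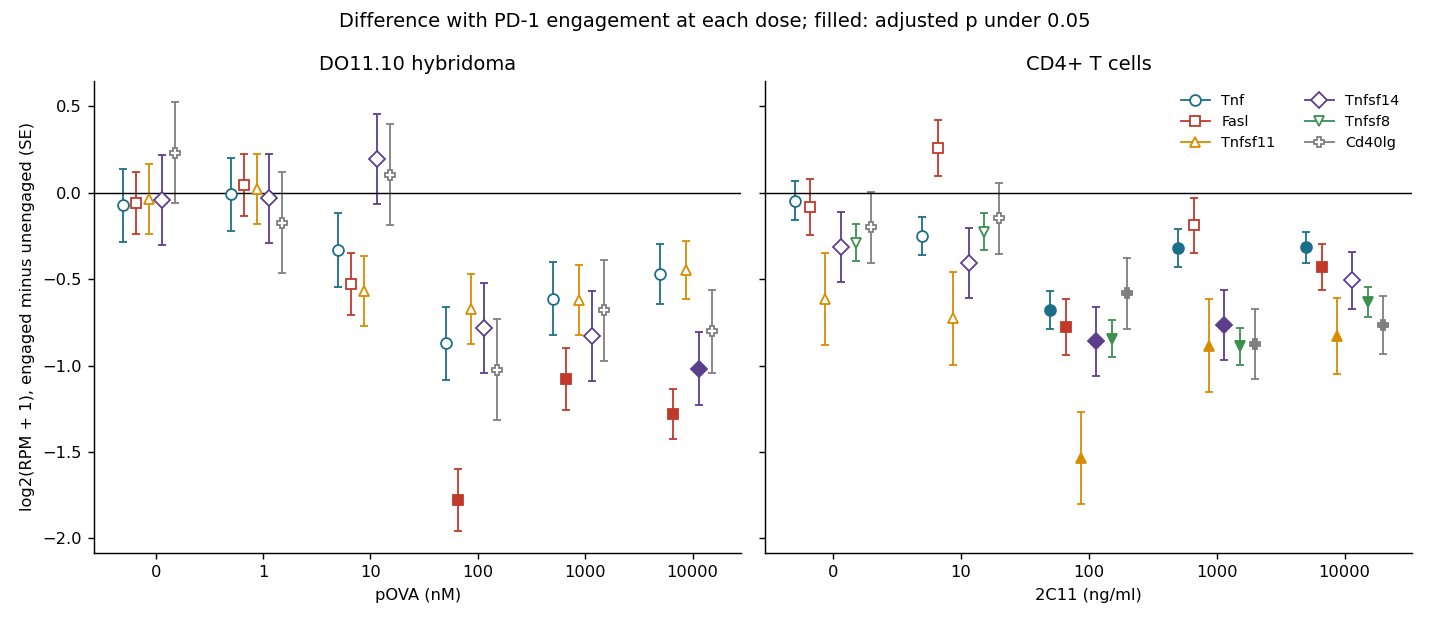
Engaged minus unengaged difference in log2(RPM + 1) of each member (vertical axis) at each dose (horizontal axis, nM pOVA in the hybridoma and ng/ml 2C11 in CD4+ T cells), with SE bars; filled symbols had an adjusted p under 0.05 in limma. Fasl falls to -1.78 at 100 nM in the hybridoma, and the lowest point in CD4+ T cells is Tnfsf11 at 100 ng/ml (-1.53).

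The difference was widest at 100 nM and at 100 ng/ml for several members. Hybridoma Fasl had 7.59 and 8.19 RPM with engagement at 100 nM, against 29.06 and 29.96 RPM without. Both engaged libraries lay at a level far under the unengaged ones, and Fasl was the only member called at this dose by limma with all libraries and no block (-1.78, SE 0.18, adjusted p = 3.41e-05 in limma; 0.485% of all genes lower). That call was lost with a pseudocount of 0.1 (adjusted p = 0.0733 in limma). The remaining 4 members did not overlap between the arms either. Tnf had 67.8 and 76.4 RPM engaged against 141 and 124 RPM unengaged, Tnfsf11 14.0 and 17.8 RPM against 24.7 and 27.1 RPM, and Cd40lg 10.3 and 14.9 RPM against 27.3 and 25.5 RPM. Tnf, at -0.87 (adjusted p = 0.0898 in limma), was called without both dose 0 libraries of number 2 (0.0246), without either unengaged dose 0 library (0.0361), with the B cell markers as a covariate (0.00362) and with the compared groups alone (0.0241). Tnfsf14 had 2.35 and 1.83 RPM engaged against 4.58 and 4.03 RPM unengaged. That 5 of 5 members did not overlap compares with 23.1% of all genes at 100 nM. With the replicate block all 5 were called at 100 nM (adjusted p between 2.57e-06 and 0.00934 in limma), beside 3.76% of all genes.

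At 1000 nM the engaged libraries of all 5 members again lay below the unengaged ones, which was so for 9.81% of all genes. Fasl had 35.2 and 27.3 RPM engaged against 68.6 and 64.7 RPM unengaged (-1.08, adjusted p = 0.0235 in limma; 0.0693% of all genes lower). Its call was lost without unengaged replicate 1 (adjusted p = 0.282 in limma), unengaged replicate 2 (0.144) or engaged replicate 2 (0.441) of that dose, with a pseudocount of 0.1 (0.977) and in edgeR (0.0711). DESeq2 also called Tnfsf11 (adjusted p = 0.0217). The replicate block called all 5 (adjusted p between 0.000389 and 0.0406 in limma), beside 2.02% of all genes.

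At 10000 nM Fasl (-1.28, adjusted p = 0.000103) and Tnfsf14 (-1.02, adjusted p = 0.0360) were called in limma, beside 0.337% of all genes, and neither overlapped between the arms; 3 of the 5 members did not, and 3.29% of all genes. Fasl had the values given above, and Tnfsf14 had 4.13, 3.76 and 3.24 RPM engaged against 7.67, 11.3 and 7.06 RPM unengaged. Tnfsf14 lost its call in 12 of the 26 fits that left out 1 library, every library of its own dose among them (adjusted p up to 0.262 in limma), and after quantile normalization (0.134). With a pseudocount of 0.1 neither was called (adjusted p = 0.256 for Fasl and 0.0888 for Tnfsf14 in limma). Tnf had 125, 124 and 178 RPM engaged against 178, 170 and 243 RPM unengaged, and its library of replicate 3 was the highest in both arms, so the groups overlap although each engaged library lay under the unengaged library of its own number. Tnfsf11, with 35.7, 28.0 and 26.6 RPM engaged against 50.8, 39.1 and 34.9 RPM unengaged, also overlapped, through its highest engaged and lowest unengaged library, with each engaged library under the unengaged one of its own number. Cd40lg had 34.9, 21.0 and 29.1 RPM engaged against 59.9, 39.7 and 49.8 RPM unengaged and did not overlap. Under the block all 5 were called here too (adjusted p between 1.54e-05 and 0.0367 in limma), beside 1.6% of all genes. At 1 and 10 nM limma called 0 members, beside 0 and 0.0396% of all genes; at an unadjusted p under 0.05 it gave 0 and 2, and edgeR and DESeq2 called 0. At 10 nM the engaged libraries of 3 of 5 members lay below the unengaged ones, as did those of 12.2% of all genes. Tnf had 21.9 and 23.0 RPM engaged against 25.6 and 31.7 RPM unengaged, Fasl 0 and 0.20 RPM against 0.32 and 0.89 RPM, and Tnfsf11 6.38 and 4.72 RPM against 7.85 and 9.51 RPM. Tnfsf14 had 4.66 and 4.98 RPM engaged against 3.86 and 4.31 RPM unengaged, the other direction.

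At 100 ng/ml all 6 members were called lower with engagement in CD4+ T cells, where 37.3% of all genes were. The median over all genes was -0.29 at this dose, and its engaged replicate 1 was the smallest library (4.42 M tags). Tnfsf11 had 2.04 and 4.39 RPM engaged against 10.4 and 11.03 RPM unengaged (-1.53), Tnfsf8 52.0 and 46.8 RPM against 87.0 and 91.9 RPM (-0.85), and Tnf 106 and 126 RPM against 180 and 192 RPM (-0.68). Fasl had 4.98 and 6.78 RPM engaged against 10.6 and 10.8 RPM unengaged (-0.78), and Tnfsf14 5.65 and 6.11 RPM against 10.1 and 13.0 RPM (-0.86). These 5 members did not overlap between the arms, as 62.8% of all genes did not with the engaged libraries below. Cd40lg overlapped, with 18.8 and 31.6 RPM engaged against 31.1 and 44.0 RPM unengaged (-0.58). Its call was lost without unengaged replicate 2 (adjusted p = 0.339 in limma) or engaged replicate 1 (0.474) of that dose, under TMM factors (0.175), after quantile normalization (0.371), in edgeR (0.422) and in DESeq2 (0.444). Fasl was not called by edgeR (-0.50, adjusted p = 0.0627) or DESeq2 (-0.50, adjusted p = 0.158). Tnfsf14 lost its call without unengaged replicate 2 (adjusted p = 0.0630 in limma).

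At 1000 ng/ml 5 members were called lower, beside 19.4% of all genes: Tnfsf8 (-0.89), Tnfsf11 (-0.89), Cd40lg (-0.88), Tnfsf14 (-0.77) and Tnf (-0.32). Tnfsf8 had 133 and 146 RPM engaged against 256 and 263 RPM unengaged, and Cd40lg 79.0 and 82.7 RPM against 140 and 158 RPM, both well apart. Fasl was the one not called, with 15.0 and 19.6 RPM engaged against 19.6 and 19.8 RPM unengaged, ranges that touch (-0.19, adjusted p = 0.417 in limma). Leaving out single libraries ended the call for Tnf in 12 of 22 fits (adjusted p up to 0.180 in limma), for Tnfsf11 without any 1 of the 4 libraries of that dose (up to 0.115) and for Tnfsf14 without 3 of those 4 (up to 0.0985). Tnf also lost it with TMM factors (adjusted p = 0.350 in limma), after quantile normalization (0.179), in edgeR (0.366) and in DESeq2 (0.370). Tnfsf11 lost it with TMM factors (adjusted p = 0.0719 in limma), after quantile normalization (0.0850) and with a pseudocount of 0.1 (0.105), and Tnfsf14 after quantile normalization (0.0682). Cd40lg lost it without unengaged replicate 2 (adjusted p = 0.0620 in limma), and Tnfsf8 kept it in all 22 fits.

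At 10000 ng/ml, the dose at which fewest genes were lower with engagement among the 3 upper doses (2.58%), 5 of the 6 members were called lower and all 6 did not overlap, as 10.4% of all genes did not. Tnfsf11 had 8.67, 9.61 and 7.20 RPM engaged against 17.1, 14.6 and 15.8 RPM unengaged (-0.83), and Cd40lg 124, 93.9 and 79.1 RPM against 158, 179 and 162 RPM (-0.76). Tnfsf8 had 179, 186 and 149 RPM engaged against 258, 279 and 258 RPM unengaged (-0.63). Fasl, the death ligand, had 19.1, 16.5 and 19.4 RPM engaged against 26.2, 22.4 and 26.6 RPM unengaged (-0.43), and Tnf 282, 230 and 246 RPM against 304, 311 and 327 RPM (-0.32). Tnfsf14 had 27.1, 29.5 and 23.3 RPM engaged against 33.0, 41.8 and 39.9 RPM unengaged and missed the threshold (-0.51, adjusted p = 0.0626 in limma), but was called with TMM factors (0.0259), after quantile normalization (0.0325), with a pseudocount of 5 (0.0113), in edgeR (0.00751) and in DESeq2 (0.00163). Leaving out 1 library ended the call in 14 of 22 fits for Fasl (adjusted p up to 0.182 in limma), in 5 for Tnf (up to 0.163), in 3 for Tnfsf11 (up to 0.110) and in 1 for Cd40lg (0.0631), without engaged replicate 3. Fasl also lost it without both dose 0 libraries of number 2 (adjusted p = 0.0632 in limma), with the B cell markers as a covariate (0.0909), with the compared groups alone (0.0574) and with a pseudocount of 0.1 (0.0751), and so did Tnfsf11 with that pseudocount (0.117). Tnfsf8 remained called in all 22.

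Before stimulation limma with all libraries and no covariate, edgeR and DESeq2 called 0 members between the arms. At an unadjusted p under 0.05 limma gave 0 of 5 in the hybridoma and 2 of 6 in CD4+ T cells. In CD4+ T cells at dose 0 the engaged libraries of 5 of 6 members nevertheless lay below the unengaged ones, as did those of 61.8% of all genes, and 13.6% of all genes were called lower. Tnfsf8 had 36.4 and 32.4 RPM engaged against 39.5 and 45.1 RPM unengaged (-0.29, adjusted p = 0.0696 in limma). It was called with the B cell markers as a covariate (adjusted p = 0.0418 in limma) and without engaged 10000 ng/ml replicate 3 (0.0431). In the cluster test described below, its main tag cluster was called lower at dose 0 (-0.41, adjusted p = 0.0374 in limma). Its other cluster was not (-0.10, adjusted p = 0.662). The direct comparison of the clusters at this dose was not called either (-0.31, limma's diffSplice), so a difference between them was not shown. In the hybridoma at dose 0 the arms overlapped for all 5 members, as they did not for 7.79% of all genes with the engaged libraries below, with means of 24.3 RPM engaged and 26.0 RPM unengaged for Tnf. For the average over stimulated doses minus the effect at dose 0, limma called 0 members in either system, beside 0 and 0.0196% of all genes called lower, and edgeR and DESeq2 called 0 members as well. At an unadjusted p under 0.05 limma gave 2 members in each system, among 110 genes in the hybridoma and 869 in CD4+ T cells. With the replicate block 1 member was called in the hybridoma, Fasl (adjusted p = 0.0314 in limma; 0.0693% of all genes lower).

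Whether engagement acted to an equal degree at all stimulated doses was tested with an F test in limma. Fasl was called in the hybridoma (adjusted p = 0.0171; 0.0693% of all genes) and in CD4+ T cells (adjusted p = 0.0145; 20.7% of all genes), and so was Tnfsf8 in CD4+ T cells (adjusted p = 0.0107). With the replicate block the hybridoma had 3 such members, Fasl (adjusted p = 0.000787), Tnfsf14 (0.0144) and Tnf (0.0198), beside 1.96% of all genes in limma. At 1 nM hybridoma Fasl was near 0 in both arms (0 and 0.06 RPM engaged, 0 and 0 RPM unengaged), and it was called at 100, 1000 and 10000 nM. Fasl in CD4+ T cells had 2.19 and 1.80 RPM engaged against 1.51 and 1.48 RPM unengaged at 10 ng/ml, above the unengaged libraries, and lay below them at 100 and 10000 ng/ml. Tnfsf8 differed by -0.85, -0.89 and -0.63 at 100, 1000 and 10000 ng/ml, and had 34.2 and 33.1 RPM engaged against 42.2 and 37.0 RPM unengaged at 10 ng/ml. Limma called 0 members at that lowest dose, beside 0.705% of all genes lower, though 3 had an unadjusted p under 0.05; edgeR and DESeq2 called 0.

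**Figure D4:**
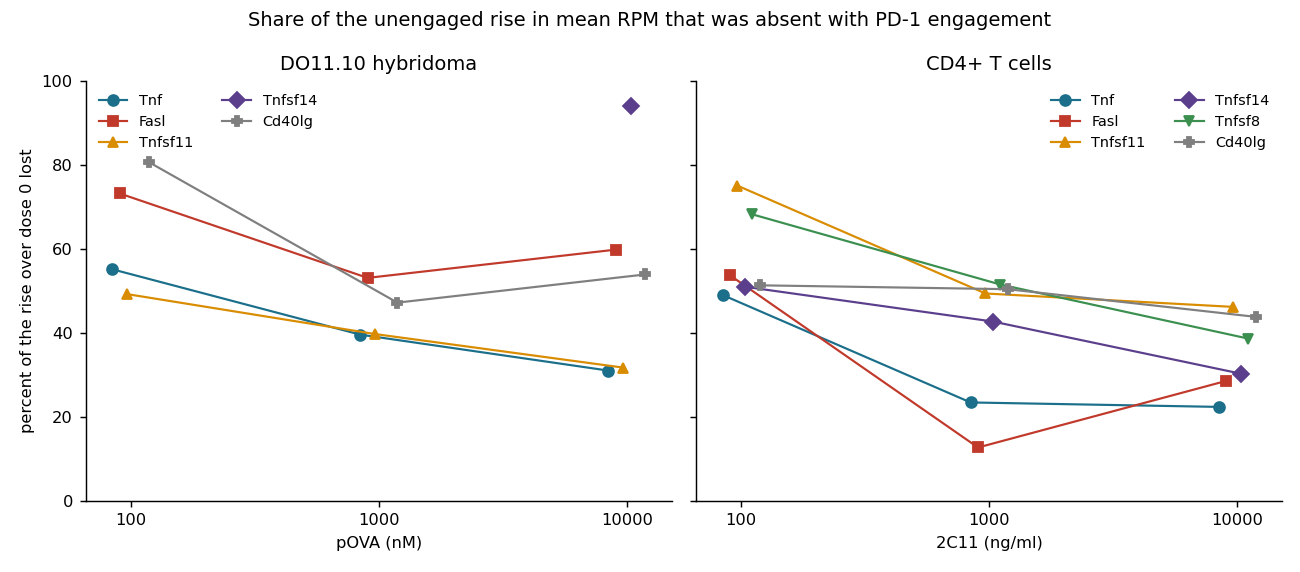
Percent of the unengaged increase in mean RPM over dose 0 that was absent with PD-1 engagement (vertical axis, 0 to 100) at the 3 upper doses (horizontal axis; nM pOVA and ng/ml 2C11), from group means without error. The CD4+ T cell values at 10000 ng/ml lie between 22.4% (Tnf) and 46.2% (Tnfsf11), below those of the same members at 100 ng/ml.

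Expressed as a share of the unengaged increase over dose 0, and among the 3 upper doses, the loss with engagement was largest at 100 nM and 100 ng/ml for every member with a value there. For Tnf it was 55.2% at 100 nM, 39.6% at 1000 nM and 31.0% at 10000 nM in the hybridoma, and 49.0%, 23.4% and 22.4% at 100, 1000 and 10000 ng/ml in CD4+ T cells. Hybridoma Fasl lost 73.2%, 53.1% and 59.8% of its increase at 100, 1000 and 10000 nM, and Cd40lg 80.6%, 47.2% and 53.9%. Hybridoma Tnfsf14 lost 94.1% at 10000 nM, where its engaged mean of 3.71 ± 0.45 RPM (SD, n = 3) stood beside 3.41 RPM at engaged dose 0. Tnfsf11 of CD4+ T cells lost 75.1%, 49.4% and 46.2% and Tnfsf8 lost 68.2%, 51.5% and 38.6% at the 3 doses. Cd40lg moved little in this measure there, with 51.3%, 50.4% and 43.8%. These shares are ratios of group means and carry no test. In CD4+ T cells the median engagement difference over all genes also varied with dose. It was -0.29 at 100, -0.17 at 1000 and 0.02 at 10000 ng/ml, and the shares were not corrected for it.

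The engaged groups of the top dose were also placed on the unengaged dose series. The engaged mean of Tnf at 10000 nM, 142 ± 30.5 RPM (SD, n = 3), equalled by interpolation the unengaged level at 152 nM. The engaged mean of Tnf in CD4+ T cells at 10000 ng/ml equalled the unengaged level at 529 ng/ml, that of Fasl at 700 ng/ml and that of Tnfsf11 at 50.1 ng/ml. These are descriptions of means over widely spaced doses.

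Tnfsf8 in CD4+ T cells was the member with 2 start regions, and they did not move together. The downstream cluster held 89.5% of all its tags and the cluster upstream of it 10.5%. At 10000 ng/ml the downstream cluster had 161 ± 18.8 RPM engaged and 255 ± 11.7 RPM unengaged (SD, n = 3 each), against 20.1 RPM and 26.9 RPM in the engaged and unengaged groups of dose 0. The upstream cluster had 9.86 ± 1.13 RPM engaged and 10.1 ± 1.05 RPM unengaged at 10000 ng/ml (SD, n = 3 each), against 14.3 RPM engaged and 15.4 RPM unengaged at dose 0. It thus held 5.77% ± 0.40 of Tnfsf8 tags engaged and 3.80% ± 0.36 unengaged at the top dose, and 41.8% engaged and 36.5% unengaged at dose 0.

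Between 10000 ng/ml and dose 0 without engagement the downstream cluster rose by 3.20 (SE 0.11, adjusted p = 9.70e-15) and the upstream one fell by 0.57 (SE 0.14, adjusted p = 0.00113), from limma over 13256 clusters, of which 27% rose and 39.5% fell. Each of 5147 clusters in genes with more than 1 cluster was compared with the rest of its gene. Of these, 39.1% were called to differ in their change, both Tnfsf8 clusters among them (difference 3.77, adjusted p = 2.35e-16, limma's diffSplice). With engagement, the downstream cluster rose by 2.95 and the upstream cluster fell by 0.50 (adjusted p = 0.00378 in limma). Of all clusters 36% rose and 26.6% fell. The change of the 2 Tnfsf8 clusters was again called to differ (3.44, adjusted p = 3.24e-15, diffSplice), beside 36.6% of the clusters compared with the rest of their gene. Engagement at 10000 ng/ml was called for the downstream cluster at -0.66 (adjusted p = 0.000807 in limma), beside 2.06% of clusters lower. It was not called for the upstream one at -0.03 (adjusted p = 0.934 in limma). The difference of -0.64 was called (adjusted p = 0.0415, diffSplice), beside 0.816% of the clusters compared with the rest of their gene. At 100 ng/ml both clusters were lower (-0.93 and -0.51), beside 31.2% of clusters. Their difference was not called (adjusted p = 0.224, diffSplice), where 5.89% of the clusters compared with the rest of their gene were. At 1000 ng/ml the downstream cluster was called (-0.92, adjusted p = 0.000188 in limma) and the upstream one was not (-0.32, adjusted p = 0.149 in limma). Their difference of -0.60 was not called (adjusted p = 0.156, diffSplice). Averaged over the stimulated doses both were lower (-0.65 and -0.33, adjusted p = 8.18e-07 and 0.00152 in limma), beside 41.2% of all genes. That difference of -0.32 was called (adjusted p = 0.0312, diffSplice). The cluster comparison was chosen after the values of these clusters had been seen.

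**Figure D5:**
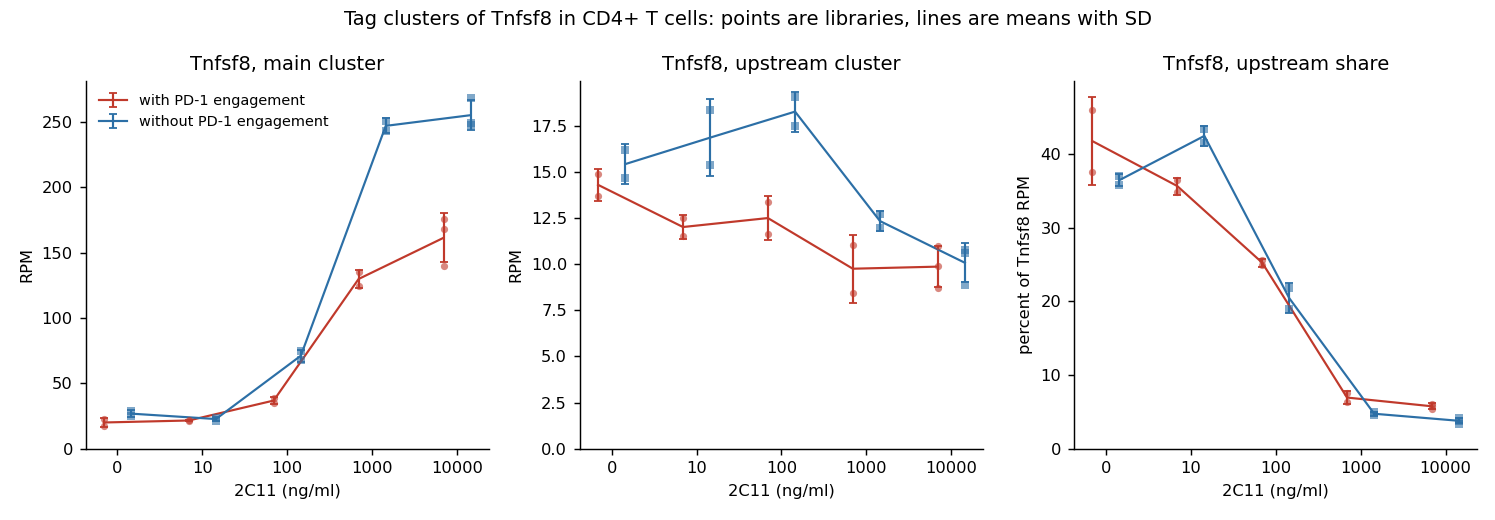
Tags of the downstream (main) and upstream clusters of Tnfsf8 in RPM, and the upstream share in percent (vertical axes), against 2C11 dose in ng/ml (horizontal axis, evenly spaced categories) in CD4+ T cells; points are libraries, lines join means and bars are SD. The downstream cluster climbs from 100 ng/ml on and separates by arm, while the upstream cluster is lower at the top dose than at dose 0. Engaged libraries of the upstream cluster lie below the unengaged ones at 10, 100 and 1000 ng/ml.

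The genes whose levels ran most like the members over all libraries were named by the highest Pearson correlation of log2(RPM + 1), as a description that shares libraries, dose and arm. In the hybridoma (26 libraries) Tnf ran closest to Fasl (r = 0.987), Fasl to Adora2a (0.988), Tnfsf11 to Med14 (0.990) and Cd40lg to Mt1 (0.962). Tnfsf14 ran closest to Trpa1, at 0.805, and its correlations with the other members lay between 0.367 and 0.628. In CD4+ T cells (22 libraries) the closest genes were Rgs16 for Tnf (0.993), Orai1 for Tnfsf11 (0.968), Nle1 for Tnfsf14 (0.994), Wdr74 for Tnfsf8 (0.995) and Slamf1 for Cd40lg (0.994). Fasl had Tnf among its closest 3 there (0.989), and the members' correlations with each other were between 0.906 and 0.989.

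Other genes of the pathway followed the members only in part. The hybridoma table held 5 of 12 other ligands of the family, and that of CD4+ T cells held 4. Lta, the gene of lymphotoxin α and a neighbour of Tnf, rose without engagement at the top dose by 1.67 in the hybridoma and 2.55 in CD4+ T cells, as did Tnfsf9, the 4-1BB ligand (0.79 and 0.84), while Ltb fell by 1.02 in CD4+ T cells. With engagement 0 of the 5 were called in the hybridoma, and Lta (-0.58) and Tnfsf10 (-0.34) were lower in CD4+ T cells. At the top dose without engagement 8.09% of all genes rose and 20.8% fell in the hybridoma, and 27.5% rose and 40.1% fell in CD4+ T cells. Among the receptors of the members, 7 were tested in the hybridoma, of which 2 rose and 1 fell at the top dose (Tnfrsf8, the receptor for CD30 ligand, at -1.92), and 6 in CD4+ T cells, of which 2 rose and 3 fell (Fas at -0.67). Engagement was called for 0 of 7 receptors in the hybridoma and for 3 of 6, all lower, in CD4+ T cells, beside 0.872% and 41.2% of all genes lower.

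Signal adaptors and inhibitors of the pathway were called with engagement in 0 of 14 cases in the hybridoma and were lower in 11 of 15 in CD4+ T cells, with medians of 0.02 and -0.21, against -0.003 and -0.14 over all genes. Of 16 transcription factors and shedding or RNA-binding regulators, 5 were lower with engagement in the hybridoma, beside 0.872% of all genes, and 13 in CD4+ T cells, beside 41.2%. Egr2 (-1.0), Egr3 (-0.81) and Egr1 (-0.76), early factors induced by receptor signalling, led that list in the hybridoma, and the same genes stood at -0.81, -0.70 and -0.60 in CD4+ T cells. The shedding enzyme gene Adam10 was at -0.28 in the hybridoma.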

How the data were processed

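CAGE libraries of 26 hybridoma and 22 CD4+ T cell samples were used, from 1 table for each system. The values are RPM as deposited by the authors, 1 per tag cluster and library; the submitters' processing notes name BWA 0.7.12, HISAT2 2.0.5 and the build mm9 without their roles. No cluster in the tables stays under about 3 RPM in every library, so weaker start sites are not analysed here. Low values were whole multiples of 1 tag for 99.8% to 100% of values in the hybridoma and 100% in CD4+ T cells (within 0.1 tag), from which tags and library totals were recovered. Clusters without a symbol (4477 and 3643) and those marked as having several symbols (356 and 371) were left out of the sums.

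Groups were taken from the treatment labels. The tables were fitted apart with limma 3.58.1 (R 4.3.3, trend, two-sided) on log2(RPM + 1), 1 mean per dose and arm, for genes that reached 1 RPM in 2 or more libraries (10094 and 10217); p-values were adjusted by Benjamini-Hochberg over all of these and called under 0.05. Alternatives were other pseudocounts (0.1, 5), filters and scalings, edgeR 4.0.16 and DESeq2 1.42.0 on recovered tags, a replicate block, a B cell marker covariate and leaving out libraries. Tag clusters of Tnfsf8 were tested with limma and its diffSplice, chosen after their values were seen. The members, lists and tests were chosen with earlier results of these data known. The genes named are the 6 members, the 3 genes most correlated with each (mean of at least 5 RPM, some left unnamed in the text) and up to 3 called genes of each list and comparison. Adam10 was named outside this rule.

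Same-numbered engaged and unengaged libraries of the hybridoma deviated together (correlations of deviations from the group means 0.788, 0.330, 0.442, 0.314, 0.472 and 0.431 from dose 0 to 10000 nM). Their numbers were therefore taken to pair them in the replicate block, an alternative, while the main fits had no block. This pairing comes from the data, not the labels. On simulated data for the engagement average, changes of 0.5 in log2 were called for 94% of changed genes in both systems. For the top dose without engagement they were called for 14% in the hybridoma and 42% in CD4+ T cells, and changes of 1 for 78% and 90%. The changed genes had a mean of at least 5 RPM, equal levels in all groups before the change and 1 common spread. For the engagement average the change was the same at every stimulated dose. The members differ from these settings, so these shares are not those to expect for them. Sequences were matched with Python 3.11.15. Intervals and floors cover counting error only.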

Additional observations from a re-analysis of the deposited data

Results flagged for a closer look

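The effect of engagement differed between stimulated doses for Fasl in the hybridoma (adjusted p = 0.0171 in limma, F test), for Fasl in CD4+ T cells (adjusted p = 0.0145) and for Tnfsf8 in CD4+ T cells (adjusted p = 0.0107). Hybridoma Fasl had differences of -1.78, -1.08 and -1.28 at 100, 1000 and 10000 nM, and its tags were at or near 0 in both arms at 1 nM. The hybridoma call was not made with a pseudocount of 0.1, by edgeR or by DESeq2 (adjusted p = 1.00 each). Fasl in CD4+ T cells was not called by edgeR (adjusted p = 0.0513) or DESeq2 (0.132), and Tnfsf8 was called by both (0.0236 and 0.00282).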

How the results depend on the processing

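No called result changed its direction under the alternatives run, but 57 single-gene results that were not called changed sign in at least 1 of them. Among these, Cd40lg engagement at hybridoma dose 0 (0.23) lay between -0.25 and 0.70 without single libraries, and Tnf there (-0.07) between -0.41 and 0.26. The CD4 value of Tnfsf11 for engagement under stimulation minus dose 0 (-0.38) lay between -0.88 and 0.12. For the engagement average in the hybridoma edgeR called 2 members in place of 4, and leaving out single libraries gave 3 to 5. The members called with an unequal effect across doses in the hybridoma, 1 in limma, were 0 with a pseudocount of 0.1, 0 in edgeR, 0 in DESeq2, 3 with the replicate block (Fasl, Tnf and Tnfsf14; 1.96% of all genes) and 0 to 1 without single libraries. The count was 0 without any 1 library of the 1 nM or 100 nM groups. In CD4+ T cells that count, 2 in limma, was 1 in edgeR and 1 to 2 without single libraries, the 1 being without unengaged 10 ng/ml replicate 2, where Tnfsf8 had an adjusted p of 0.0609. For the engagement average minus the effect at dose 0, the block gave 1 member in the hybridoma, Fasl, in place of 0 (0.0693% of all genes lower). Stimulation without engagement in the hybridoma gave 4 to 5 members without single libraries. The cause of these changes was not tested. The other 342 counts of members stayed within 1.5 times. Of single-gene results, 9167 kept their side of the threshold, 82 passed it newly and 168 no longer passed.

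In CD4+ T cells same-numbered libraries correlated at 0.037, 0.114, 0.092, 0.254 and 0.138 from dose 0 to 10000 ng/ml, so the numbers were not taken to pair them; with the replicate block all 6 members stayed lower on average, and 3 in place of 2 had an unequal effect across doses. Adding clusters of several symbols was not run, because the tables do not name those symbols. The engagement average minus the effect at dose 0 compares all groups, so fitting the compared groups alone added no value there. For 10000 nM against 0 without engagement, that fit ended the call of hybridoma Tnfsf14 (adjusted p = 0.0537 in limma). Precision is limited by 2 libraries in most groups and, for Fasl, by tags at or near 0 at the low doses.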
